A study of Arabidopsis thaliana with 10 samples.

Results

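Viable paternal excess endosperm was compared with lethal paternal excess endosperm of Arabidopsis thaliana, gene by gene, in all 10 of the 10 RNA sequencing samples of the series. Paternal excess arises when a diploid mother is pollinated by a tetraploid father, so that the endosperm, the tissue that nourishes the embryo within the seed, receives more paternal genomes than in a balanced cross. In both groups the mother was of the Ler accession and the father a 4N plant of the Col accession. The father was wild type in the lethal group and carried nrpd1 in the viable group. The largest subunit of the plant enzyme RNA polymerase IV is the product of NRPD1, and the labels do not name the mutant allele or the genotype of the mother at that gene. Each group held 5 samples, which the authors joined into 3 replicates: replicates 1 and 2 consist of 2 parts each, and replicate 3 of 1 sample. Seeds from crosses of several plants were pooled and the endosperm was dissected by hand. The labels give 7 days after pollination, except 1 part of lethal replicate 1 at 8 days, whereas the text of the series gives 6 days. The p-values below therefore measure the spread between 3 pools a group where replicate number is not used. Where it is used as a block, they measure the spread left once differences shared by same-numbered pools are taken out. In that case they are not tests against the SD of a group. No label says that the pools came from separate plants or days.

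RNA polymerase IV makes the precursors of small RNAs that guide DNA methylation to transposons and to some genes, and it acts in pollen as well as in the seed. In seeds with extra paternal genomes the early endosperm nuclei divide without walls for longer than usual, walls form late or not at all, and many seeds collapse. Passage from the free nuclear stage to walled cells, repression of type I MADS-box genes and the onset of filling with oil and protein are therefore the processes most often examined in such seeds.

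Each of the 6 libraries held between 5692640 and 7983669 reads assigned to the maternal (Ler) or the paternal (Col) allele of a gene, and 3 reads equalled between 0.376 and 0.527 CPM. CPM here are the read counts of both alleles, scaled to a fixed library size with a correction for composition, and they are not divided by gene length, so levels are compared between groups and not between genes. The paternal share of all gene reads lay between 51.1% and 53.0%, near the 50% that 2 genome copies from each parent would give. Replicate 3 of each group stood apart: it had the fewest genes with a read in its group (15829 and 13465), the 20 genes with most reads held 16.4% and 19.9% of its total, against 9.80% to 10.3% elsewhere, and viable replicate 3 lay at one end of the first principal component. The total of genes called with the replicate block is therefore also given without replicate 3 of both groups.

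NRPD1 itself, listed as NRPD1A in the reference (AT1G63020, TAIR10 chromosome 1, 23354685 to 23362589), had 34.2, 133 and 34.3 CPM in lethal replicates 1, 2 and 3, and 52.3, 96.0 and 23.6 CPM in the viable ones. The groups overlapped, and total reads did not differ beyond the spread (log2 difference, viable minus lethal, -0.22 ± 0.65 SE, adjusted p = 0.994 by edgeR). The sign of this difference turned when lethal replicate 2 or viable replicate 3 was left out. The paternal share of its reads was 57.7%, 58.2% and 49.6% in the lethal replicates and 33.5%, 30.3% and 46.2% in the viable ones, so all 3 viable shares lay below the 3 lethal shares. The test of that share gave an adjusted p of 0.552 over all genes (edgeR). Reads anywhere in the gene were counted, so a mutation that leaves a transcript would not remove them.

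How many genes differed between the groups depended on the use of the replicate number. Without it, none of 12674 genes tested passed an adjusted p of 0.05 in either direction (0.0% higher and 0.0% lower in viable, smallest adjusted p 0.122, edgeR's quasi-likelihood test), while 530 higher and 335 lower genes had an unadjusted p under 0.05. DESeq2 on the same counts called 142 genes higher (1.12%) and 57 lower (0.45%). With the replicate number as a block, edgeR called 83 genes higher, 0.655% of those tested, and 34 lower, 0.268%. Without replicate 3 of both groups, the blocked fit called 133 and 61. The 117 genes called with the block are described below as genes that rose or fell in viable. Each such call is lost in edgeR without the block under the same filter on low counts. With no filter, edgeR without the block called 54 of the 117. The 3 viable values lay above the 3 lethal values in 77 of the 83 genes that rose and below them in 29 of the 34 that fell. Over all genes tested, this held for 873 genes (6.89%) in the upward direction and 886 (6.99%) downward. The called genes were chosen on these same values, so their lack of overlap is no separate support. Leaving out the pairs of replicate 1, 2 or 3 in turn kept the direction of all 117 genes and the call of 55, 14 and 94 of them, and 14 genes were called under each of these 3 settings.

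Sugar, copper and signalling genes were among those 14. SWEET11 (AT3G48740, chromosome 3, 18052466 to 18054832), a sucrose exporter that feeds developing seeds, had 2.89, 26.1 and 4.85 CPM in lethal replicates 1, 2 and 3, and 307, 180 and 259 CPM in the viable replicates. Every viable library lay far above every lethal one, and the mean was 22.0-fold higher (block log2 difference 5.005 ± 0.76 SE, adjusted p = 0.0379, edgeR). The copper chaperone CCH (AT3G56240, chromosome 3, 20863139 to 20864727) stood at 2.17, 3.51 and 10.0 CPM in lethal and at 51.3, 37.5 and 171 CPM in viable endosperm. Replicate 3 was the highest of each group, and the groups did not overlap (block log2 4.01 ± 0.32 SE, adjusted p = 0.0153, edgeR). RALFL4, which encodes a secreted signalling peptide, had 4.94, 1.82 and 4.85 CPM against 50.5, 13.3 and 38.3 CPM (8.79-fold, block adjusted p = 0.0202, edgeR). AT1G28700 had 2.41, 4.68 and 1.36 CPM against 53.4, 37.7 and 46.1 CPM, a 16.2-fold rise (adjusted p = 0.122 without the block and 0.0282 with it, edgeR). AT1G10880 followed with 0.964, 3.51 and 2.12 CPM against 43.4, 26.5 and 36.6 CPM. For both genes the reference gives no name, and the groups did not overlap. The lethal values rest on few reads, 65 for AT1G28700 and 49 for AT1G10880 over the 3 libraries.

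The next genes, grouped by their known roles after their values were seen, are transcription factors and signalling genes that were called higher. PHV, a class III homeodomain-leucine zipper transcription factor of organ polarity, had 3.86, 3.77 and 7.88 CPM in lethal and 35.4, 60.8 and 39.0 CPM in viable endosperm. The groups did not overlap, and the rise was 8.71-fold (block log2 3.15 ± 0.40 SE, adjusted p = 0.0293, edgeR). ZPR3, a small protein that inhibits this class of factors, went from 24.6 ± 19.3 to 84.3 ± 27.6 CPM (SD, n = 3 each, block adjusted p = 0.0379, edgeR). SCRM2, a basic helix-loop-helix factor known from stomatal development, had 58.7, 43.8 and 89.3 CPM against 276, 370 and 267 CPM, again with no overlap (4.76-fold). The auxin response factor ARF11 went from 12.3 ± 1.91 to 43.4 ± 12.6 CPM, and the response regulator RR16, which acts in cytokinin signalling, from 2.13 ± 0.27 to 14.8 ± 6.26 CPM. DTA2, named as a downstream target of AGL15, had 3.62, 5.98 and 10.5 CPM against 70.6, 74.3 and 52.2 CPM.

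Some of the called genes act in the cell wall or in the channels through it, a grouping also made after their values were seen. The wall gene lists as a whole gave few calls with the block: 0 of 10 tested cellulose and callose synthesis genes, 1 lower and 0 higher of 12 expansins, and 0 of 5 XTH genes (xyloglucan-modifying enzymes), whose log2 differences all lay below 0 (median -0.81). RGP3, a mutase that supplies the arabinose precursor of wall polymers, had 83.9, 250 and 380 CPM in lethal and 2228, 1976 and 1944 CPM in viable endosperm. The 3 viable libraries lay close together, above a wide lethal range (8.60-fold, block adjusted p = 0.0328, edgeR). RRA1, an arabinosyltransferase that modifies the wall protein extensin, had 15.4, 28.6 and 47.4 CPM against 332, 272 and 166 CPM (8.42-fold). The endoglucanases GH9C1 and GH9B8 rose 5.36-fold and 3.70-fold, and the pectin methylesterase PME3 rose 4.58-fold. The arabinogalactan proteins AGP16 and FLA2 rose 3.54-fold and 6.37-fold. Of the proteins that hold or remove callose at plasmodesmata, PDCB1 rose from 8.71 ± 2.19 to 41.4 ± 11.7 CPM, PDCB4 from 116 ± 4.57 to 308 ± 36.2 CPM and the glucanase BG_PPAP from 38.3 ± 9.08 to 173 ± 55.2 CPM. TUB8, a beta-tubulin, had 28.1, 31.2 and 61.7 CPM against 135, 115 and 149 CPM.

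Other genes called higher act in metabolism or hormone synthesis. GA20OX3, an oxidase of gibberellin synthesis, had 322, 121 and 461 CPM in lethal and 1562, 1333 and 1307 CPM in viable endosperm (4.65-fold, block adjusted p = 0.0381, edgeR). The lowest viable library lay well above the highest lethal one. CSY1, a citrate synthase, had 8.44, 8.45 and 17.1 CPM against 101, 72.6 and 51.7 CPM, and the cytochrome P450 gene CYP76G1 had 3.13, 4.03 and 6.06 CPM against 43.9, 46.9 and 24.1 CPM. UGT84A3, a glucosyltransferase of phenolic acids, rose 9.53-fold, and the nitrite reductase NIR1 rose 6.14-fold. DML1, the DNA demethylase also known as ROS1, had 7.59, 16.8 and 4.40 CPM against 29.0, 46.4 and 21.8 CPM (block adjusted p = 0.0443, edgeR). Its 3 viable libraries all lay above its 3 lethal libraries. AT4G04460, AT3G18180, AT2G16990 and AT3G28155, which the reference does not name, also belong to the 12 rising genes of smallest p, with rises of 5.69-fold, 4.96-fold, 5.18-fold and 9.13-fold.

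**Figure D1:**
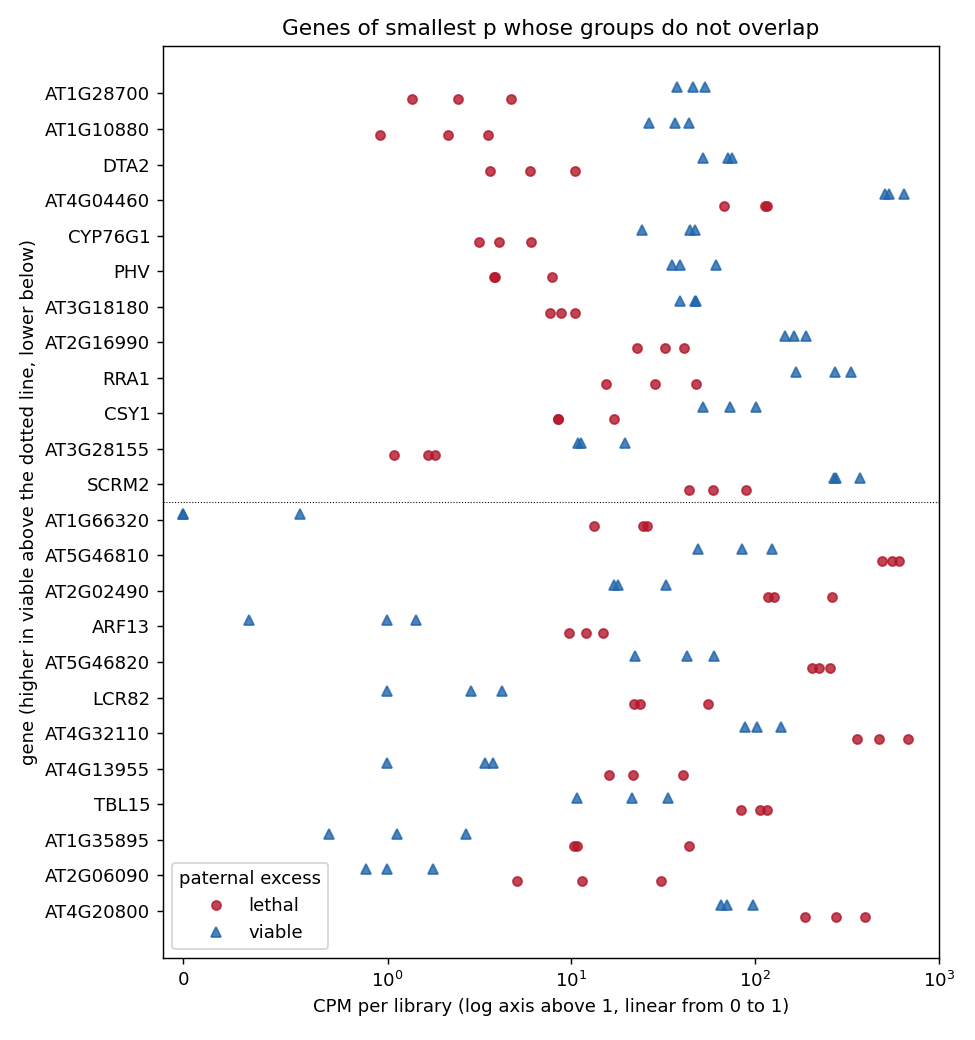
CPM of both alleles in each of the 6 libraries (circles for lethal, triangles for viable) for the 12 genes of smallest p in each direction, without the block, among genes whose groups do not overlap and whose higher group averages at least 10 CPM. None of the 24 has an adjusted p under 0.05 without the block; AT1G66320 has no read in viable replicates 1 and 3.

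Among the 34 genes that fell in viable endosperm, 8 carry a symbol in the reference. The small cysteine-rich peptide genes LCR35 and LCR82, of the defensin-like class, were both among them. LCR35 (chromosome 2, 9397864 to 9398259) had 237, 164 and 840 CPM in lethal and 55.2, 25.0 and 129 CPM in viable endosperm. Replicate 3 was again the highest of each group, and the groups did not overlap (5.93-fold lower, block log2 -2.50 ± 0.24 SE, adjusted p = 0.0187, edgeR). LCR82 had 23.7, 21.8 and 55.6 CPM against 4.18, 0.999 and 2.86 CPM. The auxin response factor ARF13 (AT1G34170, chromosome 1, 12443547 to 12446764), a member of a cluster of seed-expressed factors, had 11.9, 14.8 and 9.70 CPM against 0.322, 0.999 and 1.43 CPM, so that viable endosperm held 17 reads of it in all 3 libraries together against 277 in lethal. The groups did not overlap (block log2 -3.78 ± 0.61 SE, adjusted p = 0.0420, edgeR).

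The other named genes that fell were of metabolism, wall loosening and signalling. GSTF5, a glutathione transferase, had 870, 835 and 1108 CPM in lethal and 333, 259 and 384 CPM in viable endosperm (2.88-fold lower), and GGT2, a gamma-glutamyl transpeptidase that also acts on glutathione, had 3174, 2976 and 1564 CPM against 1138, 926 and 522 CPM (2.98-fold lower). Neither gene's groups overlapped. The expansin EXPB4 fell from 29.5 ± 12.8 to 4.51 ± 2.72 CPM (SD, n = 3 each), the protease NANA from 275 ± 100.3 to 118 ± 43.5 CPM, and CLE8, a signalling peptide gene expressed in embryo and endosperm, from 83.5 ± 47.04 to 18.8 ± 10.9 CPM.

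Of the 12 falling genes of smallest p without the block, 9 bear no name in the reference. AT1G66320 (chromosome 1, 24726812 to 24728637) had 25.9, 24.5 and 13.2 CPM in lethal and 0, 0.571 and 0 CPM in viable endosperm, that is 490 reads against 4. Its maternal level was 0 CPM in both groups, so all of these reads were paternal. It had the largest block log2 difference of all called genes (-6.71 ± 0.79 SE, adjusted p = 0.0283, edgeR). AT5G46810 and AT5G46820, next to each other on chromosome 5 (18991164 to 18993376 and 18993633 to 18996672), fell together: the first had 606, 555 and 489 CPM against 122.8, 48.9 and 84.5 CPM, the second 254, 222 and 204 CPM against 59.4, 22.1 and 42.5 CPM. Most reads of both genes were maternal: the mean paternal share was 5.40% and 4.94% in lethal and 5.10% and 8.49% in viable. Reads of neighbours whose transcripts run into each other cannot be kept apart in these tables. AT1G09360 and AT1G09370 were the only other pair of adjacent called genes. AT2G02490, AT4G32110, AT4G13955 and AT1G35895 also fell, between 4.59-fold and 14.2-fold. Their mean paternal shares in lethal were 43.7%, 2.28%, 77.9% and 83.1% in that order. TBL15, AT2G06090 and AT4G20800 did not overlap between groups but missed the threshold with the block (adjusted p 0.0537, 0.105 and 0.0599, edgeR).

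The balanced cross gave a further level for each of these genes. The authors' deposited table holds 1 pooled FPKM (fragments scaled by transcript length and library size) per group in each of its comparisons. For SWEET11 the authors' deposited table gave 5.92 FPKM in lethal and 122 in viable, and 1160 for the balanced cross. CSY1 stood, by the authors' deposited table, at 19.5 FPKM in lethal, 127 in viable and 606 in the balanced cross. For PHV the authors' deposited table gave 1.96 FPKM in lethal, 13.7 in viable and 9.34 for balanced, and its own comparison of viable with balanced did not pass (q = 0.428). Among the genes that fell, the authors' deposited table listed AT5G46810 at 162 FPKM in lethal, 25.6 in viable and 0.0865 in balanced. Its comparisons of this gene with balanced did not pass (q = 0.383 for lethal and 0.425 for viable). ARF13 had 1.26 FPKM in lethal and 0.118 in viable and was listed at 0 for balanced, again by the authors' deposited table. There, its difference between lethal and viable did not pass (q = 0.0919). Balanced values come from the comparison with lethal, which was scaled separately, and the balanced samples belong to another series.

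In these genes, picked on the sum of both alleles, maternal and paternal reads differed in the same direction. The maternal genome was Ler in either cross, whereas the paternal genome differed by nrpd1, so reads of the 2 alleles were tested separately. Of the 117 genes, 111 could be tested on both alleles, and in all 111 the maternal and the paternal difference had the same sign. The choice on summed reads of the same libraries favours such a shared sign. The median size of the difference was 2.18 on the log2 scale for maternal reads and 2.21 for paternal reads, both without the block. None of the 117 had a called difference in paternal share, beside 0.0395% called higher and 0.0237% called lower over all genes. At shares that low, the lack of a call does not show that the alleles differed equally. In 22 of the 117 the share test gave an unadjusted p under 0.05 (edgeR). With the block, 54 of the 117 were called when paternal reads were tested, 28 when maternal reads were tested, and 15 in both tests. Tested alone with the block, maternal reads called 19 genes higher and 12 lower of 11028 (0.172% and 0.109%), and paternal reads 44 and 24 of 10843 (0.406% and 0.221%). Without the block, and with the filter on low counts, edgeR called 0 on either allele, with 632 and 711 genes at an unadjusted p under 0.05. In CCH, for example, maternal reads went from 2.32 to 33.8 CPM and paternal reads from 2.91 to 52.8 CPM.

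**Figure D2:**
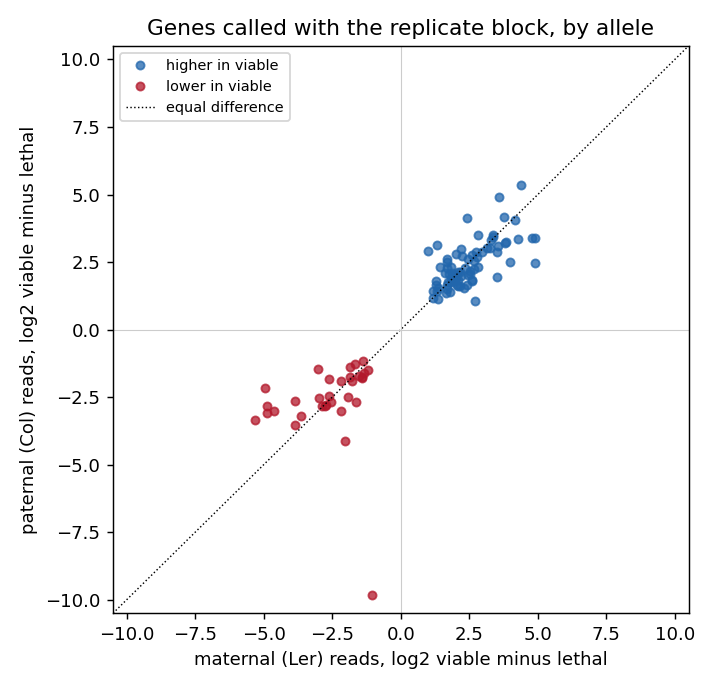
Log2 difference (viable minus lethal, replicate block) of paternal reads against that of maternal reads for the 111 called genes with both alleles tested. All points lie in the quadrants where the alleles differ in the same direction, and the lowest point is AT1G35895, with no paternal read in viable.

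The paternal share itself was called different in 8 genes of 12674 by the allele by group test, 5 higher in viable (0.0395%) and 3 lower (0.0237%). GPT2 (AT1G61800, chromosome 1, 22824414 to 22826902), a plastid glucose 6-phosphate transporter, had a paternal share of 13.5%, 13.0% and 11.8% in lethal and 39.95%, 35.98% and 49.1% in the viable group. The groups were far apart (log2 odds difference 2.29 ± 0.25 SE, adjusted p = 0.0232, edgeR), and both alleles were higher in viable: maternal reads went from 37.3 to 104 CPM and paternal reads from 5.23 to 71.5 CPM. AT3G16210 had shares of 4.89%, 7.11% and 9.28% in lethal and 41.9%, 27.4% and 45.4% in the viable group. In that gene the maternal reads were lower in viable (126 against 67.7 CPM) and the paternal reads higher (9.08 against 42.2 CPM). AT2G21420 had shares of 20.3%, 9.23% and 15.4% against 41.95%, 43.1% and 45.0%, with maternal reads of 384 and 374 CPM. AT3G48410 and AT5G38960 were also called higher in paternal share.

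The shares that were lower in viable belonged to unnamed genes. AT2G21130 had paternal shares of 42.8%, 52.2% and 41.7% in lethal and 20.4%, 24.6% and 25.9% in the viable group. AT5G19700 had 52.6%, 50.5% and 54.2% against 36.4%, 38.8% and 35.4%, and AT4G24973 had 60.6%, 64.35% and 58.1% against 34.1%, 27.0% and 30.4%. None of these 3 overlapped between groups. The 4 further genes of smallest p, without a call, were ULT2 upward and AT1G56480, AT1G35895 and AAE12 downward. AT1G35895, whose total fell, had paternal shares of 93.0%, 75.6% and 80.8% in lethal, and in viable 0 of 27 reads were paternal, which allows a share of up to 11.1% (adjusted p = 0.116, edgeR). Whether the 4N nrpd1 Col father differs in sequence from the wild-type 4N Col father at this gene was not tested. How many shares were called rested on single libraries, from 0 without lethal replicate 3 or viable replicate 1, 1 without lethal replicate 2, 2 without viable replicate 2 and 4 without lethal replicate 1, to 26 without viable replicate 3.

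**Figure D3:**
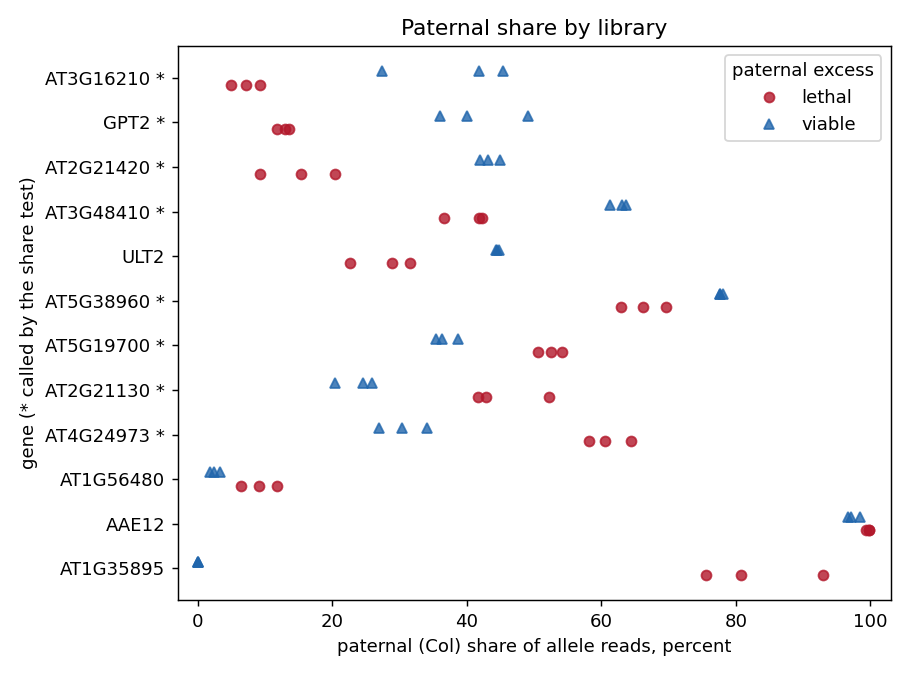
Paternal (Col) share of allele reads, in percent, per library for the 6 genes of smallest p in each direction of the share test; a star marks the 8 that were called. In the called genes the 3 viable shares do not overlap the 3 lethal shares, from AT3G16210 at 4.89% to 9.28% against 27.4% to 45.4% down to AT4G24973.

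Genes of cell wall formation at division lay above the middle of all genes. Of 18 genes of cytokinesis and the cell plate, 13 were tested, and their median log2 difference without the block was 1.16, beside -0.05 over all genes tested. PATL1, which binds lipids at the growing cell plate, was called higher with the block and none was called lower (0.655% and 0.268% of all genes). PATL1 had 49.8, 46.3 and 89.9 CPM in lethal and 175, 346 and 218 CPM in viable endosperm. HIK, a kinesin needed for the phragmoplast to expand, had 25.7, 25.2 and 28.0 CPM against 50.8, 88.3 and 115 CPM (block adjusted p = 0.0570, edgeR). With MAP65-1 and PLE, microtubule-associated proteins of the phragmoplast, 4 members of 13 did not overlap upward and 0 downward, beside 6.89% and 6.99% of all genes. Without replicate 1 of both groups the blocked call went to HIK in place of PATL1, and without replicate 2 no member was called. For members with under 10 allele reads, the authors' deposited table gave SYP111, the syntaxin KNOLLE of the cell plate, at 101 FPKM in lethal and 302 in viable (q = 0.0219). CSLD5, a cellulose synthase-like protein of the cell plate, stood at 8.32 and 29.3 FPKM in the authors' deposited table (q = 0.00417).

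Other division genes showed smaller differences. None of 19 tested mitotic cyclins, kinases and regulators was called by edgeR with the block, and the median was 0.43. The authors' deposited table called 1 member, CYCB2;1, at 1.91 FPKM in lethal and 7.33 in viable (q = 0.00417). In 7 of the 19 the groups did not overlap, all upward, beside 6.89% of all genes, and 6 of these 7 were cyclins (CYCA1;1, CYCA2;4, CYCB2;1, CYCB2;2, CYCB2;3 and CYCB2;4). The other was MYB3R-4, a transcription factor of mitotic genes. CYCA1;1 had 14.95, 14.96 and 18.0 CPM in lethal and 29.8, 30.7 and 51.1 CPM in viable endosperm, with an adjusted p of 0.128 with the block (edgeR). The most abundant members, CYCB1;3 and CDKB2;2, overlapped between groups, with 45.2 ± 35.02 against 85.7 ± 34.8 CPM and 73.0 ± 22.9 against 54.2 ± 9.46 CPM. Of 14 DNA replication genes none was called by edgeR with the block or by the authors' deposited table, and 1 did not overlap, TSO2 of ribonucleotide reductase, a share near the 6.89% of all genes. Core histones had a median of 0.29 and no member whose groups did not overlap, of 10 tested. In the tubulin family, TUB8 was called and 4 of 9 did not overlap upward, beside 6.89% of all genes, at a median of 0.49.

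Seed filling genes gave no call with the block over all 3 pairs. Of 14 fatty acid and oil synthesis genes, 13 had a positive log2 difference and in 8 the groups did not overlap upward, beside 6.89% of all genes (median 0.59). PKP-ALPHA, a plastid pyruvate kinase subunit that supplies carbon for oil, had 527, 891 and 637 CPM in lethal and 1270, 1463 and 997 CPM in viable endosperm (block adjusted p = 0.145, edgeR). MOD1, the enoyl reductase of fatty acid synthesis, had 633, 1100 and 1432 CPM against 1588, 1663 and 1565 CPM. The oil body protein gene OLEO3 had 75.5, 37.1 and 89.6 CPM against 138, 96.0 and 378 CPM, and was called with the block only without replicate 1 of both groups. Of 8 tested maturation regulators, FUS3 and DPBF2 did not overlap upward, beside 6.89% of all genes, whereas LEC1 overlapped (657 ± 313.9 against 738 ± 150.5 CPM). Of 23 photosynthesis genes, 22 had a positive difference and 5 did not overlap, all upward (median 0.65), beside the same 6.89%. The light-harvesting gene CAB2 had 138, 109 and 370 CPM against 748, 526 and 530 CPM, and was called with the block only without replicate 3 of both groups.

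Storage and lipid genes with under 10 allele reads are given beside balanced values from a separately scaled comparison. By the authors' deposited table, the albumin gene SESA2 had 0.380 FPKM in lethal and 8.10 in viable (q = 0.04975), beside 300.7 in balanced. KCS18, the elongase FAE1 of seed oil, had 1.95 and 39.2 FPKM in the authors' deposited table (q = 0.00417), beside 661 in balanced. The authors' deposited table had SESA3 rise from 2.56 to 13.7 FPKM (q = 0.0470), while SESA1 stood at 12.5 and 13.7 FPKM (q = 0.998). NF-YB6 had 22.6 and 74.7 FPKM in the authors' deposited table without passing (q = 0.506). GPAT9, an acyltransferase of oil synthesis, had 155 FPKM in lethal, 132 in viable and 114 in balanced by the authors' deposited table (q = 0.998 between lethal and viable). The authors' comparisons of GPAT9 with balanced did not pass either (q = 0.680 for lethal and 0.912 for viable).

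**Figure D4:**
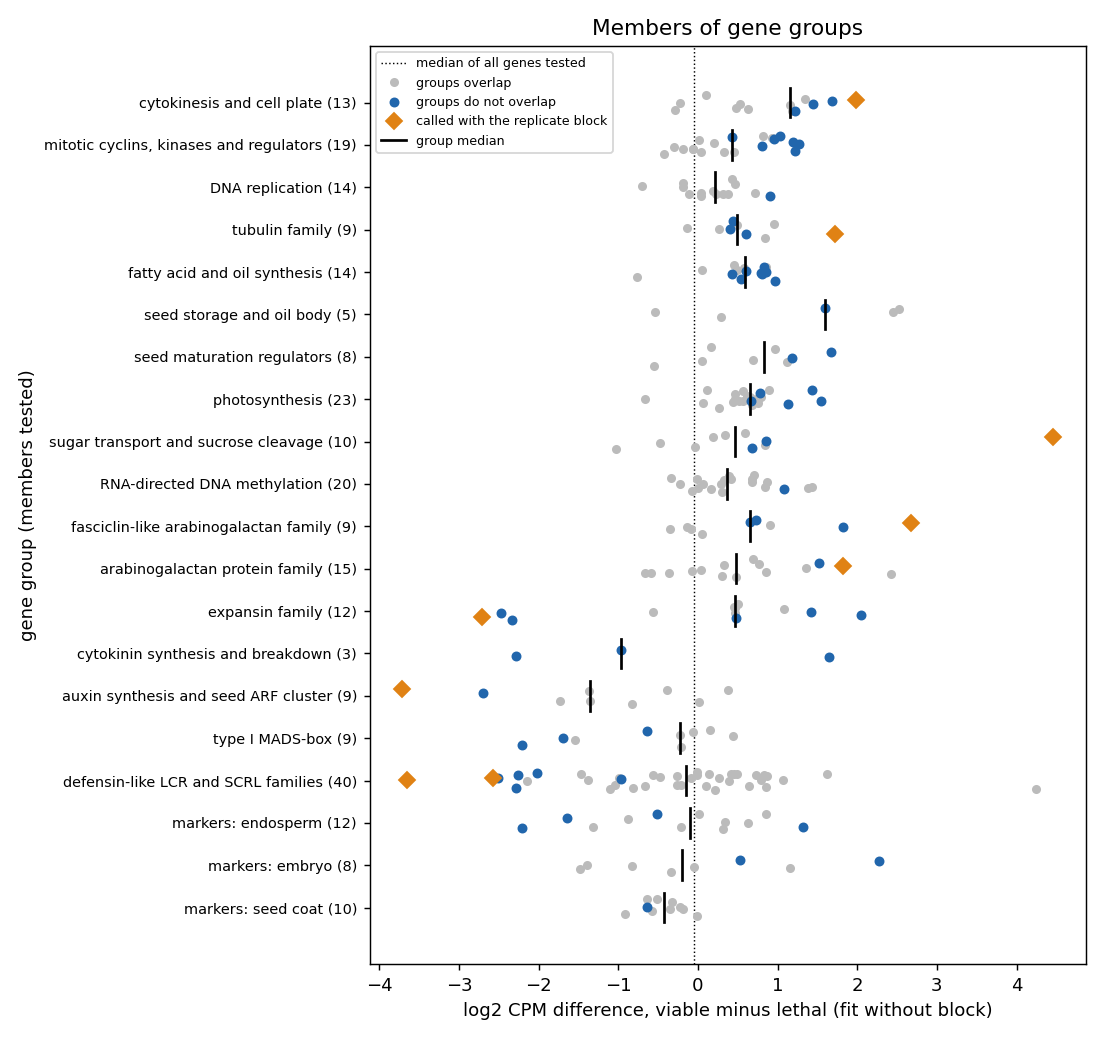
Log2 CPM difference (viable minus lethal, no block) of each tested member of 20 gene groups, with the number tested in parentheses; blue points have groups that do not overlap, diamonds were called with the replicate block, black bars are group medians and the dotted line is the median of all genes tested. Cytokinesis and oil synthesis genes lie mostly to the right of that line, at medians of 1.16 and 0.59, and seed coat markers to the left, at -0.43.

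Hormone and sugar genes gave 1 called member each in the sugar, gibberellin and auxin lists. Of 10 tested sugar transporters and sucrose-cleaving enzymes, SWEET11 was called and SWEET12 and SUT4 also did not overlap upward, beside 6.89% of all genes. SWEET12 had 12.4, 11.7 and 10.3 CPM in lethal and 16.6, 16.6 and 22.0 CPM in viable endosperm. CKX2, a cytokinin oxidase that promotes endosperm growth, had 65.7, 167 and 73.5 CPM against 32.5, 13.6 and 16.8 CPM, with no overlap (4.88-fold lower, block adjusted p = 0.102, edgeR). It was called with the block only when replicate 1 of both groups was left out. CKX3 went the other way, with 7.11, 2.08 and 7.73 CPM against 10.1, 11.1 and 31.8 CPM. ARF14, a neighbour of ARF13 in the same gene cluster, had 5.67, 5.98 and 3.79 CPM against 1.45, 0.856 and 0 CPM, and the auxin group as a whole had a median of -1.36 over 9 genes. Its synthesis genes YUC10 and TAR1 overlapped, with 26.5 ± 8.90 against 26.8 ± 5.46 CPM and 11.9 ± 3.23 against 9.09 ± 1.12 CPM. NCED6, an endosperm enzyme of abscisic acid synthesis, had 115, 111 and 109 CPM against 87.4, 76.1 and 70.8 CPM, without a call (block adjusted p = 0.358, edgeR).

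Type I MADS-box and imprinted genes gave no call in edgeR with the block. Of 9 type I MADS-box genes, 3 did not overlap, all downward, beside 6.99% of all genes. AGL62, a repressor of cell wall formation in early endosperm, had 8.44, 9.36 and 9.70 CPM in lethal and 2.90, 0.571 and 2.50 CPM in viable endosperm (block adjusted p = 0.174, edgeR). It was the 1 member that passed in the authors' deposited table, at 3.97 FPKM in lethal and 0.921 in viable (q = 0.0153). AGL96 had 16.9, 59.6 and 20.6 CPM against 15.4, 2.85 and 11.6 CPM, and AGL23 had 36.3, 46.6 and 58.4 CPM against 27.7, 26.7 and 35.9 CPM. The most abundant members, AGL38 and AGL86, overlapped between groups (1018 ± 705 against 977 ± 296 CPM for AGL38). Among 10 paternally expressed imprinted genes, HDG3 had 2180 ± 1107 against 2702 ± 1460 CPM and VIM5 915 ± 306 against 945 ± 401 CPM. The maternally expressed FWA had 74.6, 124 and 35.02 CPM against 38.5, 41.5 and 14.1 CPM, which overlap, at a block adjusted p of 0.0737 (edgeR). RNA-directed DNA methylation genes had a median of 0.36 over 20 genes and no call in edgeR with the block, except DRM2, higher, when replicate 3 of both groups was left out. The authors' deposited table called RDR2, which makes the RNA double-stranded, at 1.48 FPKM in lethal and 4.43 in viable (q = 0.0219). AGO4, their small RNA binding protein, overlapped between groups with 177 ± 80.9 against 288 ± 144.6 CPM.

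In the large families the calls were few. Of 12 tested expansins, EXPB4 alone was called with the block, downward. The authors' deposited table called 4 lower and 0 higher of 22, beside 0.769% and 1.74% of all genes. Groups did not overlap upward in 3 (EXPA1, EXPA15 and EXPA13) and downward in 3 (EXPB4, EXPA21 and EXPA23), beside 6.89% and 6.99% of all genes. EXPA21 had 407, 663 and 1106 CPM in lethal and 177, 41.7 and 173 CPM in viable endosperm (block adjusted p = 0.0690, edgeR). Of 40 tested defensin-like LCR and SCRL genes, 7 did not overlap, all downward, beside 6.99% of all genes. Among these 7, LCR35 and LCR82 were called. SCRL10 had 121, 548 and 381 CPM against 87.7, 22.7 and 110 CPM. The most abundant, LCR73 and LCR84, overlapped, and the family's median was -0.15. The authors' deposited table called 11 members of this family lower and 3 higher, of 75 tested, beside 0.769% and 1.74% of all genes. LCR38 had 1113 and 274 FPKM in the authors' deposited table, and LCR21, LCR22, LCR23, LCR24 and LCR61 were also lower. By the authors' deposited table, LCR39 had 19.4 FPKM in lethal, 144 in viable and 5555 in balanced. Of 54 tested cytochrome P450 genes, CYP76G1 alone was called with the block, and groups did not overlap upward in 11 and downward in 5, the latter near the share over all genes. The authors' deposited table called 4 of this family higher and 0 lower, of 126 tested, beside 1.74% and 0.769% of all genes.

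Genes with under 10 allele reads in all, 21165 of the table, could be followed only through the authors' deposited table, without replicate values. In it 614 genes passed a q of 0.05, 426 higher in viable (1.74% of those tested) and 188 lower (0.769%), and 189 of these had under 10 allele reads. Of the 117 genes called with the block, 96 (82.1%) also passed in the authors' deposited table, all in the same direction. These are 15.6% of the genes the authors called. Both sets of calls rest on the same samples, so their overlap is no independent check. With at least 5 FPKM in the higher group and above 0 in the other, 73 genes with under 10 allele reads were higher and 37 lower.

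Those with the largest ratios were mostly unnamed. The authors' deposited table gave AT5G15110 0.0351 FPKM in lethal and 5.37 in viable, and AT3G07820 0.370 and 24.5 FPKM. Both ratios rest on lethal values near 0. AT1G50650 stood at 13.2 and 406 FPKM in the authors' deposited table, beside 2092 in balanced. AGP23 and PIP1C are named as members of gene lists and are not among the 8 largest ratios. By the authors' deposited table, AGP23, an arabinogalactan protein gene, had 2.55 and 48.5 FPKM (q = 0.04975) and the aquaporin gene PIP1C 17.8 and 57.4 FPKM (q = 0.00417). In the other direction, the authors' deposited table gave AT4G32380 at 8.37 and 0.864 FPKM, with 0 in balanced. The mitochondrial small heat shock protein gene HSP23.6-MITO had 7.16 and 0.772 FPKM (q = 0.0102) in the authors' deposited table, and AT2G02493 had 164 and 18.9 FPKM. AT2G02493 is listed under the same locus as AT2G02490, which fell on allele reads. Whether the reads of these neighbours can be kept apart was not tested.

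**Figure D5:**
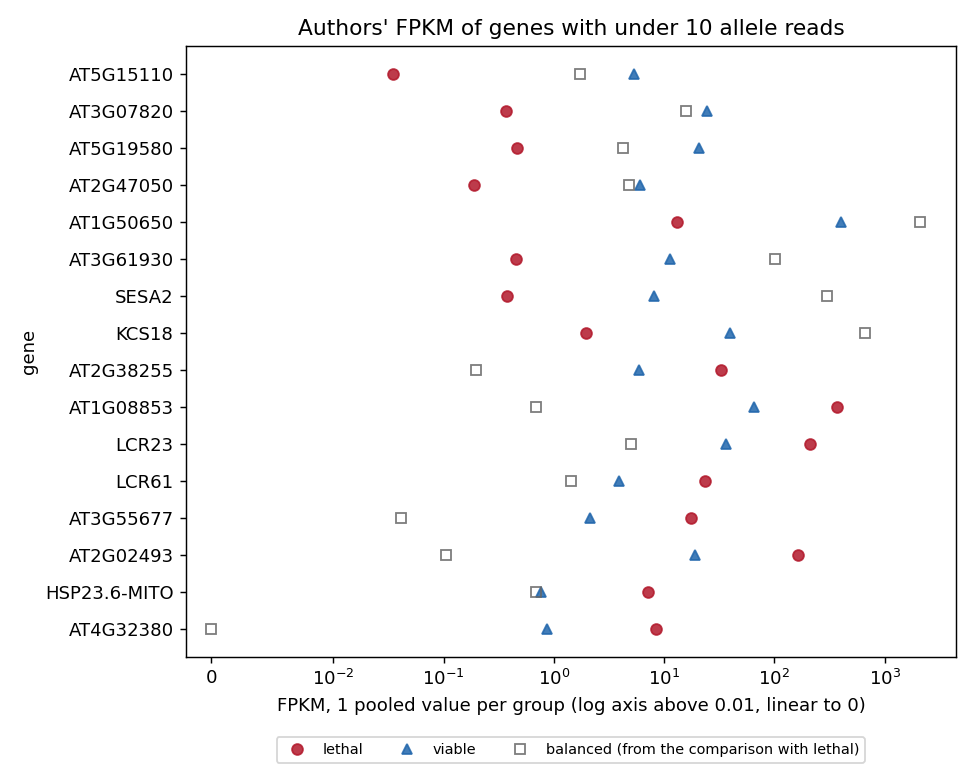
FPKM from the authors' deposited table, 1 pooled value per group, for the 8 genes of largest ratio in each direction among called genes with under 10 allele reads; circles are lethal, triangles viable and open squares balanced endosperm. KCS18 stands at 1.95, 39.2 and 661 FPKM, and AT4G32380 is listed at 0 in balanced.

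The summed level of 12 tested endosperm markers lay between 2538 and 5506 CPM in lethal and between 2900 and 6513 CPM in viable endosperm. HDG3, at means of 2180 and 2702 CPM, held much of this sum. Groups did not overlap upward in 1 of the 12 and downward in 3, beside 6.89% and 6.99% of all genes. Of the 14 listed, 1, MEA, had no allele read in any library. The 8 tested embryo markers summed to between 67.5 and 204 CPM in lethal and between 97.8 and 120 CPM in viable, and CUC1, CUC3, PLT2 and WUS of the 21 listed had no allele read. The authors' deposited table called 2 embryo markers higher and 1 lower, of 17 tested, beside 1.74% and 0.769% of all genes. It gave CUC1 0.764 FPKM in lethal and 6.48 in viable, and HB-3 5.99 and 23.2 FPKM, both higher in the authors' deposited table. ATML1, the most abundant embryo marker, had 69.0 and 26.0 FPKM in the authors' deposited table (q = 0.04975), and 114, 146 and 29.0 CPM against 53.9, 39.4 and 16.6 CPM, which overlap. ATML1 held much of the embryo marker sum in lethal replicates 1 and 2. Of the 8 tested, 5 had a log2 difference below 0. Groups did not overlap upward in 2 of the 8 and downward in 0, beside 6.89% and 6.99% of all genes. The 10 tested seed coat markers summed to between 871 and 1261 CPM in lethal and between 671 and 811 CPM in viable endosperm, so these ranges did not overlap, and all 10 had a negative log2 difference. Taken singly, 1 of the 10 did not overlap, downward, beside 6.99% of all genes. AHA10, TT12 and TT2 of the 17 listed had no allele read. The part of these tissues in the differences above was not tested, and in bulk tissue fewer cells of a type and less RNA per cell cannot be told apart.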

How the data were processed

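Endosperm RNA was made into libraries with a low-input polyA kit, per the labels' protocols. The submitters' processing notes name Trim Galore, FastQC, TopHat, Bowtie, Cuffdiff and TAIR10, with versions not given in the sources used here. Per the file headers, the authors deposited counts of reads on the Ler and Col allele of each gene and replicate, FPKM of 1 pooled value per group, and p-value and q-value of their comparison. A further 20 columns, with the balanced cross's reads per replicate, were left unused.

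Ler and Col counts were summed per gene over 6 libraries and tested with edgeR 4.0.16 in R 4.3.3 (TMM scaling, filterByExpr, quasi-likelihood F test, Benjamini-Hochberg adjustment over all genes tested), first without and then with a block for replicate number; an alternative was DESeq2 1.42.0. Deviations of same-numbered libraries from their group means correlated at 0.114, 0.475 and 0.432 over 12674 genes, all above 0.1, so the numbers were taken to pair the libraries, the first pair weakly, since lethal replicate 2 and viable replicate 1 correlated at 0.155. No label gives the source of the pairing. The paternal share was tested as an allele by group term with library as block. Reads outside genes, 7.25% to 9.66% of each library, were left out. On simulated counts, the fit without the block recovered 33 of 100 genes changed 4-fold and 87 of 100 changed 16-fold, and the blocked fit 67 and 92. Each fit had its own simulated counts, and those for the blocked fit held replicate deviations shared by both groups. These recoveries therefore cannot compare the fits or speak for the block. The libraries' depth limits precision to counting error only in part, since PCR copies are not independent molecules.

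Named genes were, since none passed without the block, the 12 of smallest p in each direction without overlap and with at least 10 CPM in the higher group, the 2 most abundant members of each gene list, the 8 largest FPKM ratios in each direction and list members with under 10 allele reads, the 6 smallest p in each direction of the share test, and NRPD1. Other genes called with the block, and other list members whose groups do not overlap, were named after their values were seen. Members and lists were chosen with earlier results of these data known. Gene symbols come from RefSeq (TAIR10.1), in which 37043 of 37328 genes of the expression table were found. Coordinates are the TAIR10 loci of the authors' expression table.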

Additional observations from a re-analysis of the deposited data

How the results depend on the processing

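Without a block, the counts of genes higher and lower in viable were 0 and 0 in the main test and with RLE scaling, 142 and 57 with DESeq2, and 55 and 26 with no filter on low counts. They stayed at 0 to 0 when any single replicate, or replicate 3 of both groups, was left out. With the replicate block they were 83 and 34. The alternatives to the blocked fit were added after the data were seen: DESeq2 gave 343 and 179, RLE scaling 85 and 38, and no filter 350 and 184. Leaving out the pair of replicate 1, 2 or 3 gave 44, 14 and 133 higher and 49, 6 and 61 lower genes. The 117 blocked calls kept their direction in all of these settings, and DESeq2 without the block called 87 of them. Maternal reads called 0 genes without a block, 31 with the replicate block and 86 with no filter; paternal reads called 0, 68 and 163; leaving out a replicate gave 0 to 0 for both. The paternal share called 8 genes, 45 with no filter, and 0 to 26 with a replicate left out. Genes with under 10 allele reads called by the authors numbered 110 at 5 FPKM, 132 at 1 FPKM and 102 with no allele read. The log2 difference of NRPD1 reversed to 0.74 without lethal replicate 2 and to 0.15 without viable replicate 3, within a range of -0.82 to 0.74 with a replicate left out. The cause of these changes was not tested. Of the other values of named genes under alternatives, 1108 kept their side of the threshold, 270 passed it and 35 no longer did. Genes with few reads, such as ARF13 in viable endosperm, are limited by depth.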
